A study of Mus musculus with 71 samples.

Results

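The levels and the decay of 10 transcripts were followed, those of genes that methylate lysine 9 of histone H3 (H3K9), assist in this or bind the methylated lysine: Setdb1, Trim28, Atf7ip, Ehmt1, Ehmt2, Suv39h1, Suv39h2, Cbx1, Cbx3 and Cbx5. They were chosen by name, and all 10 were found among the 21527 genes listed. The data came from SLAM-seq, in which RNA is labeled in living cells with 4-thiouridine (s4U) and read as T-to-C conversions in 3′ end libraries, so that each library gave both the level of a transcript and the share of its T positions that still carried label. The study asked how loss of N6-methyladenosine (m6A) from mRNA changes RNA stability.

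Male mouse embryonic stem cells (mESC), grown in 2i/LIF medium, received 100 µM s4U for 24 h and were then chased with an excess of uridine. STM2457, an inhibitor of the m6A methyltransferase Mettl3, was given at 20 µM from 6 h before the chase and stayed in the medium to the end, and control cells received its solvent DMSO over the same period. Libraries were made after 0, 1, 1.5, 2.3, 3.5, 5.3, 8 and 12 h of chase. Each combination of treatment and time point had 4 replicates, but STM2457 at 3.5 h had 3. A further 4 libraries per treatment came from cells without s4U, which brings the total to 71 libraries in 18 groups. All cells were of a single male line in a single medium, and the study's methods describe its replicates as biologically independent. By 12 h of chase the STM2457 cells had been treated for 18 h.

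H3K9 methylation marks silent chromatin. In mESC, Setdb1 trimethylates H3K9 at endogenous retroviruses, where it is brought by the corepressor Trim28 (KAP1) and zinc finger proteins, and Atf7ip holds Setdb1 in the nucleus and protects it from degradation. Ehmt1 (GLP) and Ehmt2 (G9a) form a dimer that places mono- and dimethylation in euchromatin, Suv39h1 and Suv39h2 trimethylate H3K9 at pericentromeric repeats, and the HP1 proteins Cbx1 (HP1β), Cbx3 (HP1γ) and Cbx5 (HP1α) bind the methylated lysine.

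On GRCm38, with GENCODE M21 coordinates, Setdb1 lies at chr3:95323525-95357202 on the minus strand, Trim28 at chr7:12999114-13031035 on the plus strand and Atf7ip at chr6:136506167-136610862 on the plus strand. Ehmt1 lies at chr2:24789928-24919614 (minus strand), Ehmt2 at chr17:34898469-34914052 (plus strand), Suv39h1 at chrX:8061171-8074760 (minus strand) and Suv39h2 at chr2:3455815-3475031 (minus strand). Cbx1 lies at chr11:96789127-96808640 (plus strand), Cbx3 at chr6:51470360-51483704 (plus strand) and Cbx5 at chr15:103191544-103239816 (minus strand). Suv39h1 was thus the X-linked member and the other 9 were autosomal. All are annotated as protein-coding, and reads were counted on windows of the 3′ UTR.

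The libraries held 4539726 to 7368244 counted reads (median 5726508), of which 22.5 to 28.8% mapped to more than one position. The mESC markers Pou5f1 and Nanog were read in all 71 libraries, Sox2 was not listed in the tables used here, and 4 of 6 mESC markers tested (Esrrb, Zfp42, Nanog and Tfcp2l1) had higher read counts with STM2457 in the averaged comparison below, in which 13.9% of all genes were higher. The 11 measured markers of other cell types of a list of 14 summed to 60.4 to 157.6 CPM (counts scaled to the same library total) per DMSO library and 55.4 to 127.4 CPM per STM2457 library. Of these, 8 were tested in that comparison, and 2 were lower with STM2457, T (-0.44) and Nes (-0.34), and 0 higher. Over all genes 12.6% were lower and 13.9% higher. The median over the 8 was -0.005. Thy1 (0.31), Eomes (0.29), Gata4 (0.23) and Mixl1 (0.03) lay above 0 and Cdx2 (-0.04) and Col1a1 (-0.78) below, and none of these passed. Among the endoderm markers Sox17 was at 0 in 51 of the 71 libraries, Gata6 in 33 and Gata4 in 0 (medians of 3.30 and 4.34 CPM in DMSO and STM2457), and the epithelial marker Krt5 was at 0 in 58. Their part in the results below was not tested.

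One property of the libraries moved with several of the 10 genes and has to be set out first. In each library, the log2 level of a gene relative to its mean over all libraries was regressed on the GC content of the last 300 bases of its transcript, over 7788 genes. This GC slope ran from -0.52 to 0.14 log2 units per 10 percentage points of GC, with a mean of -0.02 ± 0.15 (SD, n = 32) in the DMSO chase libraries and 0.02 ± 0.13 (SD, n = 31) in the STM2457 chase libraries. It was below -0.15 in 11 libraries, 8 of them DMSO and 3 STM2457. At 1.5 h the groups did not overlap, with -0.179 to -0.0080 in DMSO and 0.096 to 0.115 in STM2457, and at 8 and 12 h the DMSO mean was the higher one. Since the GC slope moved with treatment at some time points, the comparisons of read counts were repeated with it as a covariate, and without the 11 libraries, both choices made after the data were seen. In bulk libraries, fewer cells with a transcript and less of it per cell cannot be told apart.

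**Figure D1:**
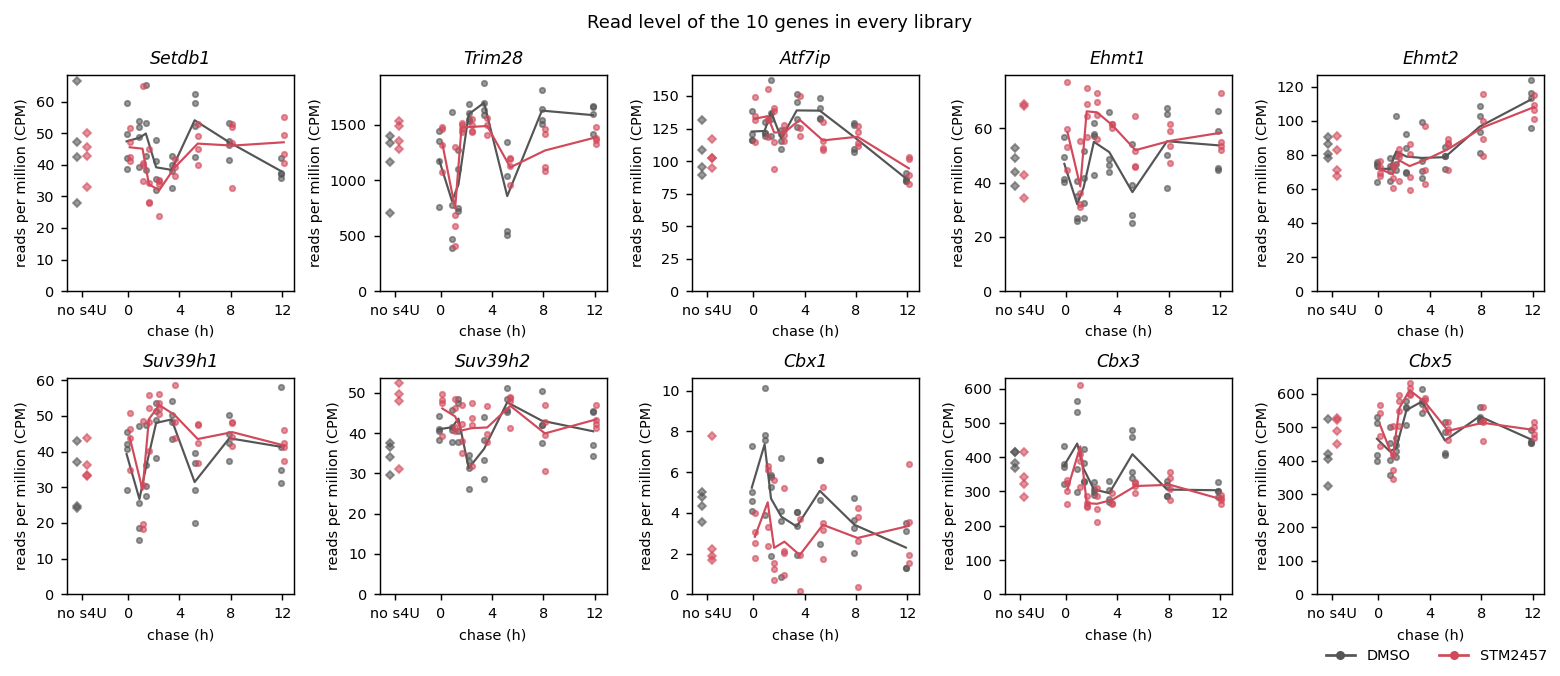
Level of the 10 genes (y axis, CPM, starting at 0) in every library against hours of uridine chase (x axis, unlabelled libraries as diamonds at the left), with DMSO in grey and STM2457 in red. Points are libraries and lines join group means. Trim28 ranged from 392.3 to 1881 CPM over the DMSO chase libraries, whereas Atf7ip ended the chase at 84.8 to 90.6 CPM in DMSO.

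The Setdb1 arm was read at very different depths, from a median of 253 reads per library for Setdb1 and 685 for Atf7ip to 8275 for Trim28. Setdb1 lay between 32.1 and 65.4 CPM over the 32 DMSO chase libraries (median 42.5) and between 23.8 and 64.96 CPM over the 31 STM2457 ones (median 41.1), so the treatments overlapped over most of their range. Averaged over the time points its difference, STM2457 minus DMSO, was -0.10 ± 0.06 (SE) on the log2 scale, with an adjusted p of 0.22 (edgeR quasi-likelihood test). Atf7ip was at 84.8 to 162.5 CPM in DMSO (median 123.0) and at 82.6 to 155.1 CPM in STM2457 (median 120.1), a difference of 0.00 ± 0.04 (SE, edgeR adjusted p = 0.96).

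Trim28 varied widely between replicates. At 1 h its 4 DMSO libraries held 1616, 392.3, 773.9 and 469.8 CPM and its 4 STM2457 libraries 589.5, 690.9, 1298 and 403.0 CPM, so that the groups overlapped widely. At 1.5 h the groups did not overlap, with 1272, 721.1, 1105 and 749.6 CPM in DMSO and 1434, 1460, 1498 and 1521 CPM in STM2457. In the opposite direction they did not overlap at 3.5 h, with 1881, 1634, 1586 and 1701 CPM in DMSO against 1561, 1504 and 1407 CPM in STM2457. Trim28 was thus apart at 3 of the 8 time points, higher with STM2457 at 1 and lower at 2. Groups were also apart at 2 time points for Cbx3 and Cbx5, at 1 for Atf7ip, Ehmt1 and Cbx1 and at 0 for the others. How often this held over all genes was not counted. At 8 h the values were 1820, 1547, 1641 and 1511 CPM in DMSO against 1125, 1081, 1459 and 1414 CPM in STM2457. Averaged over the chase the difference was 0.04 ± 0.09 (SE, edgeR adjusted p = 0.78). With the library GC slope as a covariate it turned to -0.09 ± 0.03 with an adjusted p of 0.015, still short of the threshold of 0.01.

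Within groups, Trim28 followed the GC slope of the library closely. After group means were taken off, the correlation between its log2 CPM and the GC slope over the 71 libraries was r = 0.93 and rho = 0.86, given as a description since Trim28 itself is among the genes that set the slope. Suv39h1 (r = 0.77), Cbx5 (r = 0.74) and Ehmt1 (r = 0.49) deviated in the same direction as Trim28, while Cbx3 (r = -0.90) and Setdb1 (r = -0.61) deviated in the opposite one. Atf7ip (r = -0.12), Suv39h2 (r = -0.20), Ehmt2 (r = 0.21) and Cbx1 (r = -0.23) moved little with it. The end of the Trim28 transcript holds 51.7% GC, and those of Setdb1 and Cbx3 33.3% and 34.3%, against a median of 45% over the 7788 genes. GC content alone did not order the members, since Ehmt2, with the highest value of 58%, moved little and Suv39h1, at 42.2%, moved with Trim28.

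**Figure D2:**
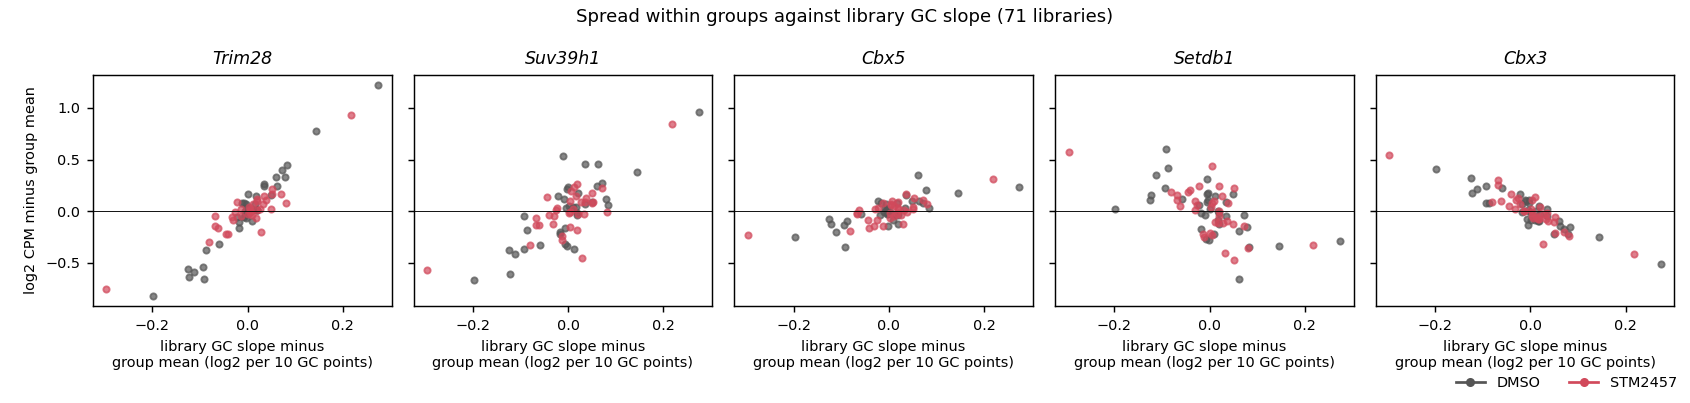
Deviation of log2 CPM from the group mean (y axis) against the deviation of the library's GC slope from its group mean (x axis, log2 units per 10 percentage points of GC) for 5 genes in 71 libraries, DMSO in grey and STM2457 in red. Trim28, Suv39h1 and Cbx5 increase with the GC slope (r = 0.93, 0.77 and 0.74), and Setdb1 and Cbx3 decrease (r = -0.61 and -0.90).

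Among the methyltransferases of euchromatin, Ehmt1 was higher with STM2457 and Ehmt2 was not distinguishable between treatments. Ehmt1 lay between 24.99 and 67.6 CPM over the DMSO chase libraries (median 44.9) and between 30.9 and 77.2 CPM over the STM2457 ones (median 56.9), and its group mean was higher with STM2457 at all 8 time points. At 8 h the means were close, with 55.2 CPM in DMSO and 55.4 CPM in STM2457, and such a count was not made over all genes. The averaged difference was 0.33 ± 0.07 on the log2 scale (SE, edgeR adjusted p = 0.00023), and 0.26 ± 0.06 with the GC slope as a covariate (adjusted p = 0.00028). Without any one of the 8 sets of replicates it stayed between 0.28 and 0.36 with adjusted p-values of at most 0.0027.

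The difference in Ehmt1 was largest at 1.5 h, where 41.7, 32.6, 51.6 and 26.996 CPM in DMSO stood against 74.7, 56.9, 64.6 and 68.9 CPM in STM2457. Every STM2457 library was above every DMSO library, with a difference of 0.83 ± 0.21 (SE, edgeR adjusted p = 0.0038). With the GC slope as a covariate it was 0.47 ± 0.18 and no longer passed (adjusted p = 0.11), and without the libraries of low GC slope it was 0.52 (adjusted p = 0.13). The call at 1.5 h was also lost without DMSO replicate 2, DMSO replicate 4 or STM2457 replicate 1 (adjusted p = 0.024, 0.038 and 0.015). In the unlabelled libraries the Ehmt1 difference was 0.22 ± 0.21 (SE, edgeR adjusted p = 0.60). Over all 71 libraries, the genes whose log2 CPM was most like that of Ehmt1 were Siah1b (Pearson r = 0.85) and Acin1 (r = 0.83), a description that includes what libraries share in depth and GC slope.

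Ehmt2 was at 63.9 to 124.0 CPM in DMSO (median 78.6) and at 59.4 to 115.9 CPM in STM2457 (median 79.5). Its averaged difference was -0.02 ± 0.05 (SE, edgeR adjusted p = 0.79).

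The Suv39h genes were read at medians of 243 and 236 reads per library. Suv39h1 was at 15.2 to 58.2 CPM in DMSO (median 40.9) and at 18.2 to 58.6 CPM in STM2457 (median 46.4), and its group mean was higher with STM2457 at all 8 time points. At 12 h the means were close, with 41.4 CPM in DMSO and 41.7 CPM in STM2457, and such a count was not made over all genes. The averaged difference of 0.20 ± 0.08 (SE) did not pass (edgeR adjusted p = 0.047), and it was 0.09 ± 0.06 with the GC slope as a covariate (adjusted p = 0.23). Without DMSO replicate 1 Suv39h1 passed, at 0.30 (adjusted p = 0.0013). Suv39h2 was at 26.1 to 51.1 CPM in DMSO (median 40.9) and at 30.5 to 49.6 CPM in STM2457 (median 42.7), a difference of 0.11 ± 0.05 (SE, edgeR adjusted p = 0.088). In the unlabelled libraries it was at 36.6, 34.1, 29.5 and 37.5 CPM in DMSO and 31.1, 47.9, 52.4 and 49.6 CPM in STM2457, which overlap through a single STM2457 library (0.40 ± 0.14, edgeR adjusted p = 0.071).

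Of the HP1 genes, Cbx3 was lower with STM2457, but its reads could not be placed uniquely. Cbx3 lay between 268.8 and 564.3 CPM over the DMSO chase libraries (median 327.1) and between 210.1 and 612.1 CPM over the STM2457 ones (median 295.5), with a lower STM2457 group mean at 7 of the 8 time points, a count not made over all genes. The averaged difference was -0.18 ± 0.05 (SE, edgeR adjusted p = 0.0015), and -0.10 ± 0.03 with the GC slope as a covariate (adjusted p = 0.0025). The call was lost without DMSO replicate 2, DMSO replicate 4 or STM2457 replicate 3 (adjusted p = 0.012, 0.021 and 0.015). In total 99.7% of the reads on the Cbx3 window mapped to more than one position, against at most 1.16% for the other 9 genes, and 6.67% of all genes had more than 50% of such reads. The value is therefore uncertain, since reads of near-identical copies cannot be separated from it, and on uniquely mapped reads alone the difference was -0.60 ± 0.36 and did not pass (edgeR adjusted p = 0.20).

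Cbx5 was at 356.3 to 616.4 CPM in DMSO (median 495.7) and at 346.5 to 633.3 CPM in STM2457 (median 517.4), with an averaged difference of 0.10 ± 0.04 that did not pass (SE, edgeR adjusted p = 0.040). At 1.5 h all 4 STM2457 libraries (504.1, 578.7, 596.7 and 548.9 CPM) were above all 4 DMSO libraries (446.8, 409.7, 466.8 and 427.7 CPM). That difference of 0.39 ± 0.11 just passed (SE, edgeR adjusted p = 0.0094), and it did not pass with the GC slope as a covariate (0.12 ± 0.08, adjusted p = 0.45) or in 7 of the 8 fits without a set of replicates, where adjusted p-values reached 0.053. Cbx1 was barely read, with a median of 20 reads per library (1 to 56), and its averaged difference of -0.52 ± 0.21 did not pass (SE, edgeR adjusted p = 0.040), though it did without STM2457 replicate 1 (-0.79, adjusted p = 0.0034).

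Counted together, 2 of the 10 genes passed the averaged comparison, Ehmt1 higher and Cbx3 lower, while 26.5% of the 12659 genes tested passed in either direction (13.9% higher and 12.6% lower). The median difference was 0.02 over the 10 genes and -0.01 over all genes tested on the log2 scale. Set against that background, the share of the H3K9 genes that passed was no higher than that of all genes. In the comparisons at single time points, Ehmt1 and Cbx5 passed at 1.5 h, where 8.18% of all genes did (4.16% higher and 4.02% lower), and none of the 10 passed at 0 h (1.68% of all genes), 1 h (1.53%), 2.3 h (1.61%), 3.5 h (1.3%), 5.3 h (4.45%), 8 h (2.34%) or 12 h (5.41%), or without s4U (2.58%). DESeq2 called Ehmt1, Cbx5 and Cbx3 at 1.5 h, where it called 1402 of the 12659 genes, against 1035 in edgeR. It called none of the 10 at the other times or without s4U, where it called 224 to 864 of all genes. In these same comparisons, 8 of the edgeR tests of a member had an unadjusted p under 0.05, 4 of them at 5.3 h and 2 without s4U. That count was not made over all genes.

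**Figure D3:**
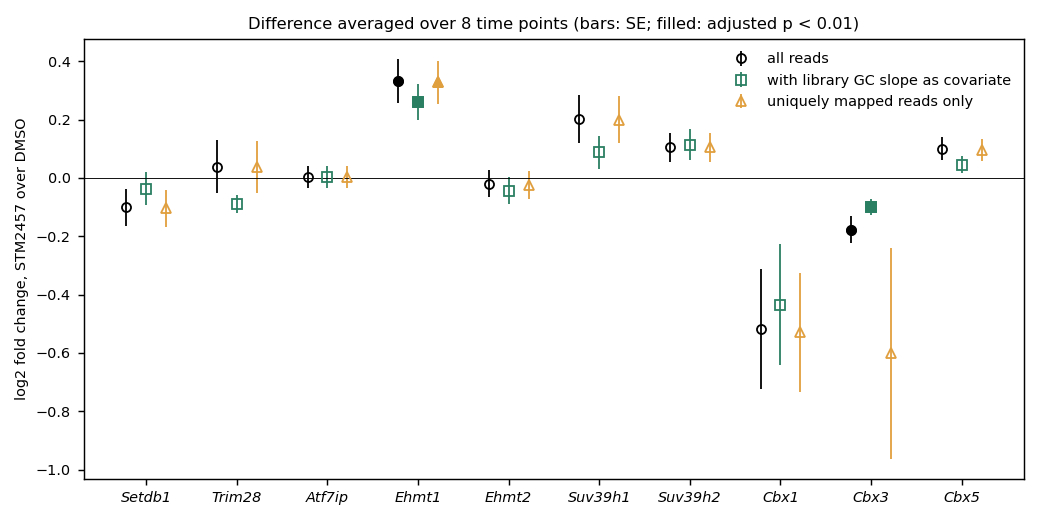
Difference between STM2457 and DMSO averaged over the 8 chase time points (y axis, log2 fold change, bars are standard errors) for the 10 genes, from all reads (black circles), with the library GC slope as a covariate (green squares) and from uniquely mapped reads (yellow triangles). Filled symbols passed an adjusted p of 0.01. Ehmt1 passed in all 3 fits (0.33, 0.26 and 0.33), Cbx3 in the first 2 (-0.18 and -0.10).

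Over the 12 h of chase, levels drifted in control cells too. Atf7ip fell in DMSO from 115.8, 138.5, 120.5 and 115.8 CPM at 0 h to 86.3, 85.0, 90.6 and 84.8 CPM at 12 h, with no overlap. The fall was not steady, with DMSO means of 122.7 CPM at 0 h, 138.7 at 5.3 h, 118.3 at 8 h and 86.7 at 12 h. The Atf7ip slope was -0.59 ± 0.09 log2 units per 12 h in DMSO and -0.54 ± 0.08 in STM2457 (SE, edgeR adjusted p = 6.1e-08 and 1.3e-06). With the GC slope as a covariate both Atf7ip slopes kept these values. Ehmt2 rose in DMSO from 63.9, 75.9, 74.6 and 73.3 CPM to 116.5, 113.7, 95.9 and 124.0 CPM, again with no overlap. Most of this rise came late, with DMSO means of 71.9 CPM at 0 h, 78.7 at 5.3 h, 96.6 at 8 h and 112.5 at 12 h. The Ehmt2 slope was 0.48 ± 0.10 in DMSO and 0.54 ± 0.10 in STM2457 (SE, edgeR adjusted p = 0.00017 and 5.3e-05), and the DMSO call was lost with the GC covariate (0.34, adjusted p = 0.017) and without DMSO replicate 4 (0.35, adjusted p = 0.023).

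The Cbx3 level fell in DMSO by 0.47 ± 0.10 log2 units per 12 h (SE, edgeR adjusted p = 0.00020), a slope that was -0.05 with the GC covariate (adjusted p = 0.63) and -0.32 without the 11 libraries of low GC slope (adjusted p = 0.0010). In the fit with the GC covariate 4 of the 10 genes fell in DMSO, namely Atf7ip, Cbx5 (-0.36, edgeR adjusted p = 2.9e-05), Suv39h1 (-0.55, adjusted p = 0.0017) and Trim28 (-0.34, adjusted p = 0.00032). Of the 12659 genes tested in that fit, 1407 fell and 735 rose. Without the covariate the slopes of Trim28 and Suv39h1 had the opposite sign, 0.46 and 0.08, and neither passed, though Trim28 did without DMSO replicate 1 (0.58, edgeR adjusted p = 0.0051) and without TMM scaling (0.61, adjusted p = 0.0064). Of the 10 genes, 3 passed in DMSO, 1 higher and 2 lower, beside 25.9% of all genes (12.4% higher and 13.5% lower), and 2 passed in STM2457, beside 13.1% (6.01% higher and 7.05% lower). The difference between the slopes of the treatments passed for none of the 10 in edgeR or in DESeq2. Over all genes it passed in 3.42% in edgeR and in 574 of 12659 in DESeq2. Of the 10, 2 had an unadjusted edgeR p under 0.05 (Setdb1 and Cbx1), a count not made over all genes. The largest such difference for a well-read gene was in Setdb1, with 0.51 ± 0.20 log2 units per 12 h (SE, edgeR adjusted p = 0.10). Setdb1 was at 37.0, 35.8, 37.4 and 42.1 CPM in DMSO at 12 h and at 55.3, 40.5, 43.3 and 49.5 CPM in STM2457, groups that overlap.

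Turning to label loss, each library gave a conversion rate, the T-to-C conversions divided by the T positions read. At 0 h the mean rate of Setdb1 was 1.75 ± 0.28% in DMSO and 1.34 ± 0.14% in STM2457 (SD, n = 4), and that of Trim28 was 1.39 ± 0.12% and 1.25 ± 0.06% (SD, n = 4). Without s4U the rates were 0.10% and 0.10% for Setdb1, 0.05% and 0.06% for Trim28 and, highest among the 10, 0.28% and 0.26% for Ehmt2. The precision was set by the number of conversions. At 0 h in DMSO a library held on average 2473 conversions on Trim28, 921.8 on Cbx3 and 849 on Cbx5, but 128.3 on Setdb1, 54.5 on Suv39h1 and 13 on Cbx1. Since 99.7% of the Cbx3 reads were not uniquely placed, its conversions, half-lives and label loss cannot be separated from those of near-identical copies. At 5.3 h in DMSO, Atf7ip, Ehmt1, Suv39h1 and Suv39h2 had 5.5 to 8.25 conversions per library left, so later points carried little for these genes.

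Half-lives were fitted to the background-subtracted rates relative to 0 h, averaged over replicates, with the filters of the study (half-life of 0.67 to 18 h with a residual standard error no greater than 0.3, for each treatment). Of the 10 genes 9 passed. Cbx1 did not, with a residual standard error of 0.63 in STM2457.

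The shortest-lived transcripts in DMSO were Atf7ip with a half-life of 1.96 h, Suv39h1 with 2.13 h, Setdb1 with 2.53 h, Suv39h2 with 2.64 h and Ehmt1 with 2.85 h, all below the median of 3.19 h over the 7361 transcripts that passed. Cbx5 (3.44 h), Cbx3 (4.28 h, on reads not uniquely placed), Trim28 (4.31 h) and Ehmt2 (4.98 h) were above it. Atf7ip stood at the 14th percentile and Ehmt2 at the 83rd. The SD over the replicate series described below ran from 0.29 h for Atf7ip to 1.39 h for Suv39h2. Neighbours in this order differed by less than the larger of their SDs, apart from Ehmt1 and Cbx5, and Cbx5 and Cbx3.

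In STM2457 the half-lives were 2.52 h for Atf7ip, 2.75 h for Suv39h1, 3.54 h for Setdb1, 3.91 h for Suv39h2 and 2.94 h for Ehmt1. They were 3.98 h for Cbx5, 4.72 h for Cbx3, 4.20 h for Trim28 and 4.74 h for Ehmt2. The value was thus longer for 7 of the 9 genes, beside 56.7% of all transcripts, and the median log2 ratio was 0.21 over the 9 genes and 0.07 over all transcripts. The ratio was highest for Suv39h2 (0.57), Setdb1 (0.48), Suv39h1 (0.37) and Atf7ip (0.36) and below 0 for Trim28 (-0.04) and Ehmt2 (-0.07). The order of the first 4 was not stable, since without DMSO replicate 1 Suv39h2 was at 0.26 and Setdb1 highest at 0.56, without STM2457 replicate 1 Atf7ip was at 0.21, and without STM2457 replicate 3 Suv39h1 was at 0.21. With a free value at 0 h the ratios were 0.30 for Suv39h2, 0.31 for Setdb1, 0.35 for Suv39h1 and 0.23 for Atf7ip, and with every library as its own point Suv39h1 and Suv39h2 did not pass the filters. Some of these curves rose above their 0 h value during the chase. In STM2457 Suv39h2 stood at 131.5% at 1.5 h (residual standard error of 0.25) and Setdb1 at 102.6% at 1 h. In DMSO Suv39h1 stood at 102.6% at 1 h. Without a set of replicates the ratio ran from -0.085 to 0.034 for Trim28 and from -0.21 to 0.092 for Ehmt2, so neither sign was stable. The share of all transcripts that were longer ran from 51.3% without STM2457 replicate 1 (8 of 10 members) to 63.3% without the libraries of low GC slope (7 of 8 members).

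**Figure D4:**
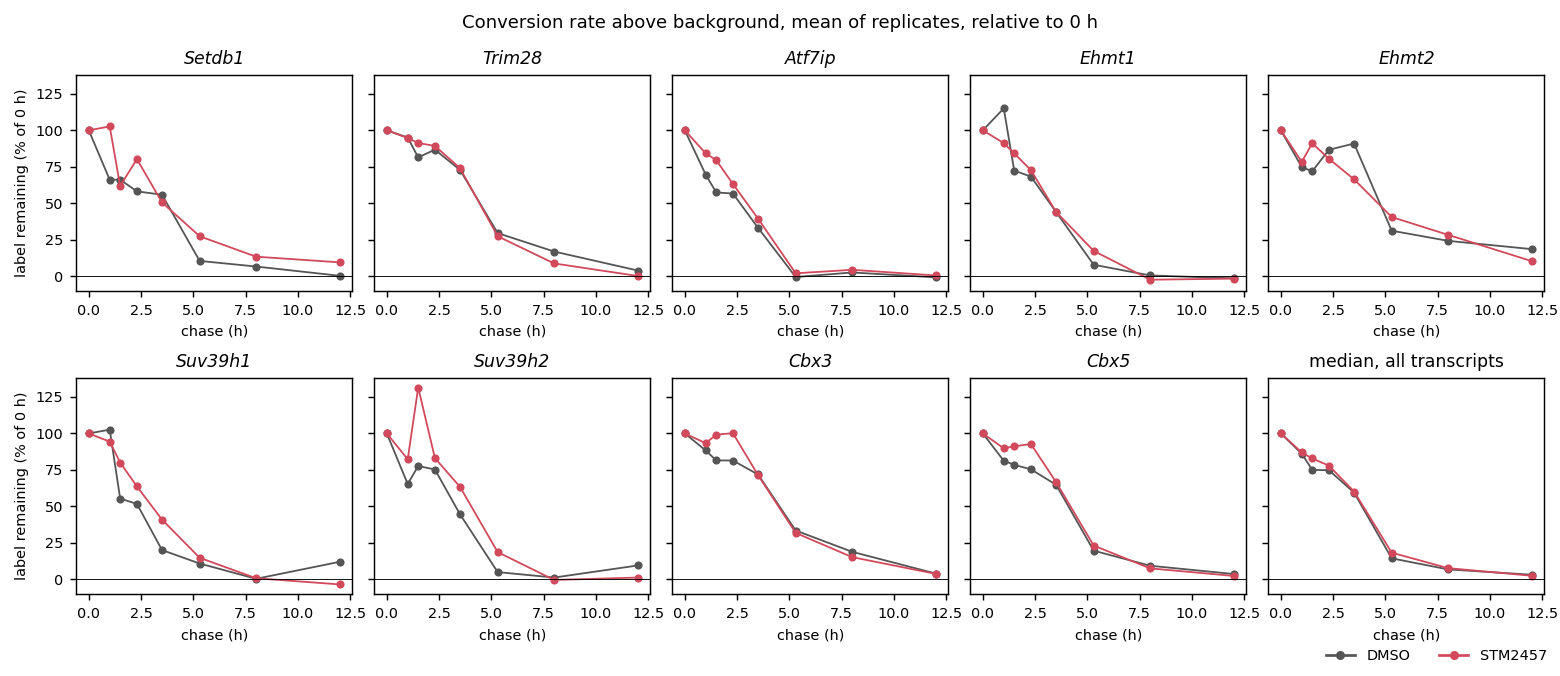
Conversion rate above background relative to 0 h (y axis, percent, means of 4 replicates, 3 for STM2457 at 3.5 h) against hours of chase (x axis) for the 9 genes with an accepted half-life and, last, the median over all accepted transcripts, DMSO in grey and STM2457 in red. Suv39h2 and Setdb1 differ most in fitted half-life (log2 ratios of 0.57 and 0.48), and Trim28 retained 8.8% of its label at 8 h in STM2457 against 16.9% in DMSO.

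To obtain an error, half-lives were also fitted in series that join the libraries of 1 replicate number, 4 for each treatment. Nothing in the labels links the same number across time points, and other ways of joining the libraries were not tried. All series of a treatment shared its unlabelled libraries as background, so their SD does not hold the error of the background. Setdb1 gave 3.22, 2.85, 2.58 and 1.87 h in DMSO and 3.15, 4.62, 4.14 and 2.49 h in STM2457. The means were 2.63 ± 0.57 h and 3.60 ± 0.96 h (SD, n = 4), with an exact two-sided permutation p of 0.20. Atf7ip gave 1.53, 2.03, 2.19 and 2.10 h in DMSO and 3.38, 2.16, 2.33 and 2.32 h in STM2457. This was the closest to a separation among the 9 genes, with means of 1.96 ± 0.29 h and 2.55 ± 0.56 h (SD, n = 4) and an exact permutation p of 0.057, and a single DMSO series lay above the lowest STM2457 series.

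For Suv39h1 the means were 2.21 ± 0.40 h and 2.91 ± 0.93 h (SD, n = 4, exact permutation p = 0.26) and for Suv39h2 3.02 ± 1.39 h and 3.797 ± 0.51 h (SD, n = 4, exact permutation p = 0.31). In the remaining genes the exact permutation p was 0.29 for Cbx5, 0.46 for Trim28 and Cbx3, 0.66 for Ehmt1 and 0.89 for Ehmt2 (n = 4 series per treatment). The smallest p that 4 against 4 series allow is 0.029. In none of the 9 genes were the series of the treatments fully apart, and how often this held over all transcripts was not counted. In limma across 6244 transcripts none of the 9 passed an adjusted p of 0.05 (smallest 0.75, for Setdb1), and 1 transcript in all did (0.016%), while 513 had an unadjusted p under 0.05. None of the 9 members was among those 513, their smallest unadjusted p being 0.16.

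**Figure D5:**
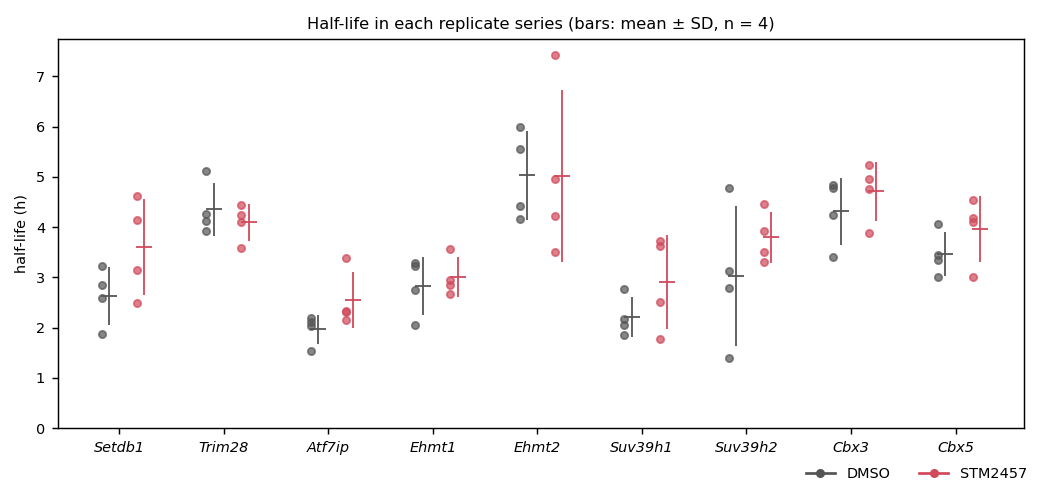
Half-life (y axis, hours) in each of 4 replicate series per treatment for 9 genes, DMSO in grey and STM2457 in red, with the mean and SD as bars. The series of the treatments overlap in every gene, least in Atf7ip (1.53 to 2.19 h against 2.16 to 3.38 h).

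Label loss was then compared over single libraries, by the slope of log2 net conversion rate on hours of chase. This needs a net rate above 0 in at least 2 libraries of each of the 16 labelled groups, which Setdb1, Trim28, Ehmt2, Cbx3 and Cbx5 met and the other 5 did not. Libraries with a net rate of 0 or less were left out of the fit of that transcript, 1 of 63 for Trim28 and 3 for Setdb1. Of the 5 genes tested, Trim28 passed. Its slope in STM2457 was lower than in DMSO by -0.11 ± 0.02 log2 units per h (SE, limma adjusted p = 3.8e-05), which is a faster loss of label. In the same test 8.78% of 3496 transcripts passed, 7.18% in this direction and 1.6% in the other.

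The Trim28 call rested on the late time points. At 8 h its rates were 0.26, 0.30, 0.30 and 0.23% in DMSO and 0.13, 0.19, 0.17 and 0.16% in STM2457, and at 12 h 0.12, 0.09, 0.09 and 0.10% against 0.07, 0.04, 0.07 and 0.06%. The groups did not overlap at either time, but at 12 h the STM2457 rates lay within the 0.03 to 0.09% of the unlabelled STM2457 libraries. Without 12 h the difference still passed (-0.10 ± 0.02, limma adjusted p = 0.0018), and without 8 and 12 h it did not (-0.02 ± 0.03, adjusted p = 0.87). Rates over all genes also differed at these times, with 0.39 to 0.43% of all T positions converted in DMSO and 0.36 to 0.39% in STM2457 at 8 h, and 0.27 to 0.29% against 0.22 to 0.23% at 12 h. Their part in the Trim28 result was not tested. The fitted Trim28 half-lives were 4.31 h in DMSO and 4.20 h in STM2457.

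Cbx3, on reads not uniquely placed, had a difference in label loss of -0.06 ± 0.02 log2 units per h (SE, limma adjusted p = 0.11). It was -0.03 ± 0.02 for Cbx5 (adjusted p = 0.57), 0.03 ± 0.03 for Ehmt2 (adjusted p = 0.65) and 0.05 ± 0.05 for Setdb1 (adjusted p = 0.64). None of these passed.

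Mettl3 writes m6A mostly within motifs that hold the letters GGAC. As a description, GGAC was counted on the sense strand of 1 GENCODE M21 transcript per gene, the longest annotated protein-coding one. Over the 7788 genes with a mean of at least 10 CPM and a known end, 99.8% of these transcripts held it at least once. The median density over these genes was 4.11 per kb. Cbx1 had 6.03 per kb, Ehmt1 5.71, Ehmt2 5.46, Setdb1 4.72 and Suv39h1 4.49. Cbx3 had 3.71, Trim28 3.70, Atf7ip 3.23 and Cbx5 1.59 per kb, the last with fewer than all but 3.62% of the 7788 genes. Suv39h2 held 1.85 per kb, fewer than all but 6.07% of the 7788 genes.

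Other genes of the pathway were described by lists, which were chosen with earlier results known. Among 16 tested of 18 partner genes, 3 were higher and 3 lower in the averaged comparison (median 0.06), beside 13.9% higher and 12.6% lower over all genes. Zfp57, the zinc finger protein that brings Trim28 to imprinted loci, was higher with a difference of 0.61 ± 0.11 (SE, edgeR adjusted p = 8.3e-06), as was Prdm2 with 0.28 ± 0.06 (adjusted p = 7.0e-05). Sumo2, the modifier through which Trim28 engages Setdb1, was lower at -0.29 ± 0.05 (SE, edgeR adjusted p = 4.9e-06), and so was the Trim28 relative Trim24 at -0.15 ± 0.05 (adjusted p = 0.0077). With the GC covariate 3 partners were higher and 1 lower, and the calls of Trim24 (-0.095, edgeR adjusted p = 0.043) and Atf7ip2 were lost.

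Of the HUSH complex and other silencing factors, 15 of 16 were tested, 2 were higher and 4 lower (median -0.03), beside the same 13.9% and 12.6% over all genes. Daxx, a histone H3.3 chaperone, was higher by 0.56 ± 0.07 (SE, edgeR adjusted p = 1.9e-10) and Chaf1a, a subunit of the CAF-1 chaperone, by 0.27 ± 0.04 (adjusted p = 1.1e-06). Morc2a, which compacts chromatin with HUSH, was lower at -0.42 ± 0.07 (edgeR adjusted p = 5.1e-07) and Uhrf1, a maintenance factor of DNA methylation, at -0.19 ± 0.03 (adjusted p = 2.5e-06). Among 9 tested of 11 H3K9 demethylases, 1 was lower (12.6% over all genes), Kdm4c with -0.40 ± 0.10 (SE, edgeR adjusted p = 0.0012), and the median was -0.09.

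A list of 23 genes of the 2-cell stage and the germline held targets of the pathway in mESC. Of these 22 were listed in the tables, 5 were at 0 in every library and 10 were tested. Tex19.1 had medians of 171.0 CPM in DMSO and 274.9 CPM in STM2457 and Dppa3 of 57.7 and 48.7 CPM, and the medians of the others were at most 8.01 CPM (Ddx4 in DMSO). Tex19.1, a germline gene that mESC express, was higher with STM2457 by 0.71 ± 0.06 (SE, edgeR adjusted p = 5.6e-16), and Dppa3 was lower at -0.26 ± 0.06 (adjusted p = 0.00047). Both differences passed with the GC covariate, and the median over the 10 was -0.12. Zscan4d, Tcstv1 and Tcstv3, markers of the 2-cell-like state, were at 0 in 65, 64 and 61 of the 71 libraries, so a difference in these genes was not detectable at this depth.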

How the data were processed

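The authors sequenced QuantSeq 3′ mRNA libraries, mapped them with SLAM-DUNK 0.4.3 allowing up to 100 positions per read, masked variants found in libraries without s4U, and counted on 3′ UTR windows matched to GENCODE M23. FastQC 0.11.8 and GRCm38.p6 are named in the submitters' processing notes. Per gene and library they deposited raw read counts and counts of multimapping reads, covered T positions and conversions, without normalization. The deposited conversion rate is a fraction and equals conversions divided by covered T positions, and the deposited CPM was not used, since CPM was computed here from the deposited read counts and each library's total. Hours of chase follow the study's description of the experiment.

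Read counts of all 71 libraries were fitted with edgeR 4.0.16 (quasi-likelihood, TMM, filterByExpr, 1 mean per group, adjusted p under 0.01 by Benjamini-Hochberg over 12659 genes, no batch term) in R 4.3.3. A standard error is the log2 fold change divided by the square root of F. DESeq2 1.42.0 was an alternative. Half-lives were fitted with Python 3.11.15 (numpy 2.4.6, scipy 1.17.1, pandas 2.3.3) on chromosomes 1 to 19 and X, and label loss with limma 3.58.1 (adjusted p under 0.05, mean T coverage above 1000). Counts carry no molecular identifiers as far as the sources used here state, so counting precision is an upper bound on precision. Tests were checked on simulated data. For the half-life series the simulated shift was larger than that of any member. That check therefore did not cover differences of the size seen here.

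All 10 members were named, then up to 4 genes per list with the smallest adjusted p among those that passed the averaged comparison, and the 2 genes most correlated with the member of smallest adjusted p. Atf7ip2, Ddx4 and the marker and silenced genes named for their levels, for being at 0 or for being absent were picked after their values were seen. The members and lists were chosen with earlier results of these data known. Same-numbered libraries of the treatments did not deviate together (35 pairs, mean r = 0.01, 1 pair over 0.1), so the numbers were not taken as pairs.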

Additional observations from a re-analysis of the deposited data

Results flagged for a closer look

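Of 188 groups of 4 libraries or series, 7 held a value far from the other 3 by Dixon's criterion, which chance gives in about 1 group in 20. Setdb1 was lowest at 23.8 CPM in STM2457 replicate 3 at 2.3 h. Ehmt1 was highest at 73.0 CPM in STM2457 replicate 4 at 12 h, and Suv39h2 lowest at 41.2 CPM in STM2457 replicate 3 at 5.3 h. Cbx1, with few reads, was highest at 7.75 CPM in STM2457 replicate 3 without s4U and at 5.63 CPM in STM2457 replicate 1 at 1.5 h, and lowest at 1.89 CPM in DMSO replicate 2 at 1.5 h. The Atf7ip half-life was highest at 3.38 h in STM2457 series 1.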

How the results depend on the processing

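Depth limits Cbx1 most, and label at 5.3 h and later for the 4 genes with few conversions. The GC slope and treatment cannot be told apart at 1.5 h beyond the covariate.

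In the averaged comparison 2 of the 10 genes passed, and 1 did on uniquely mapped reads. Leaving out a set of replicates gave 1 to 3 of the 10 and 2747 to 3504 of all genes, with ranges of -0.020 to 0.021 for Atf7ip, -0.056 to 0.035 for Ehmt2 and -0.036 to 0.17 for Trim28. Atf7ip turned to -0.012 without TMM and -0.0032 in DESeq2, and Trim28 to -0.090 with the GC covariate and -0.046 without the libraries of low GC slope. With the replicate block 3375 genes and 2 of the 10 passed. The same replicate numbers did not deviate together, and the block changed no call of a member in any comparison of read counts at the thresholds used.

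For the slope difference, 12 h minus 0 h gave 140 genes in place of 433, and leaving out replicates 300 to 428. The sign turned with the GC covariate for Cbx3 (-0.026), Cbx5 (0.11), Suv39h1 (0.24) and Trim28 (0.10), for Ehmt2 at 12 h minus 0 h (-0.032) and for Suv39h2 without the libraries of low GC slope (0.0022), and ran from -0.0076 to 0.19 for Atf7ip and from -0.14 to 0.036 for Cbx5 without replicates. The DMSO slope passed in 1651 genes for 12 h minus 0 h and in 2142 with the GC covariate, in place of 3274, and in 2103 to 3309 genes and 2 to 4 of the 10 without replicates. It turned without TMM for Cbx5 (0.065) and Suv39h2 (0.10), with the GC covariate for Ehmt1 (-0.12), Setdb1 (0.034), Suv39h1 (-0.55), Suv39h2 (0.0033) and Trim28 (-0.34), and for Suv39h1 also for 12 h minus 0 h (-0.071), without the libraries of low GC slope (-0.19) and without replicates (-0.021 to 0.19).

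At single time points, 2 calls of members became 1 without TMM, 1 without the filter on low counts, 1 on uniquely mapped reads, 0 with the GC covariate, 0 without the libraries of low GC slope and 5 in separate fits, with 0 to 7 (2138 to 4829 calls over all genes) without replicates.

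Half-lives with every library as its own point passed for 4559 transcripts. Without replicates 6 to 8 members were longer and 6917 to 7164 transcripts passed. In the replicate series 0 transcripts in place of 1 passed with the block and 0 without 3.5 h, and 0 to 1 without replicates. The Ehmt2 ratio was 0.23 without 3.5 h and -0.25 to 0.11 without replicates, and that of Ehmt1 -0.045 to 0.18. In label loss 3 members passed without precision weights, 2 with a common background and 0 without 8 and 12 h, in place of 1, beside 887 transcripts without weights, 91 without 12 h and 13 without 8 and 12 h. Cbx5 turned to 0.024 without 8 and 12 h, and Ehmt2 to -0.060 without weights, -0.017 without 8 and 12 h and -0.012 to 0.049 without replicates. Leaving out replicates gave 1 to 2 members and 215 to 316 transcripts. The cause of these changes was not tested. The GC settings and the one without 8 and 12 h were chosen after seeing the data.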
